A study of Arabidopsis thaliana with 4 samples.

Results

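Anthocyanins are red and purple flavonoid pigments that Arabidopsis thaliana makes in strong light, with sugar and under stress. Their late synthesis genes are switched on by a complex of an R2R3-MYB protein, a bHLH protein and the WD40 protein TTG1, and the same bHLH and WD40 proteins, with other MYB partners, pattern trichomes and root hairs. The genes described here are 10 regulators of this system, chosen by locus from what they are known to do: the MYB activators PAP1 (AT1G56650), PAP2 (AT1G66390), MYB113 (AT1G66370) and MYB114 (AT1G66380), the flavonol regulator MYB12 (AT2G47460), the bHLH genes TT8 (AT4G09820), GL3 (AT5G41315) and EGL3 (AT1G63650), TTG1 (AT5G24520) and the repressor MYBL2 (AT1G71030). They had 11 of the 43603 probes on the array, EGL3 having a pair and each other gene a single probe, and 9 of the 10 were bright enough to be tested among 20525 genes.

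RNA labelled vim1,2,3 was compared with RNA of wild-type Col on 4 Agilent 2-colour arrays, one pair of RNAs per array. The series describes vim1,2,3 as a triple mutant; VIM1, VIM2 and VIM3 encode proteins that maintain CG methylation of DNA. Both genotypes were seedlings 14 days old, grown on diluted B5 medium under a cycle of 16 h light with 8 h dark and collected 6 h after lights on. The labels give neither the mutant alleles nor the number of seedlings in a sample. The vim1,2,3 RNA was in the Cy5 channel and Col in the Cy3 channel on all 4 arrays, so the arrays cannot separate genotype from dye. The 4 arrays shared a slide and a scan, which leaves no batch of slide or scan to test. Other batches, such as of growth or labelling, were not tested. Before normalisation, the median spot signal on arrays 1 to 4 was 949, 967.5, 1718 and 1312 for vim1,2,3. For Col it was 670.5, 637, 1270.5 and 966, so arrays 1 and 2 were dimmer in both genotypes.

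Signals are given as normalised fluorescence in arbitrary units, on arrays 1 to 4 in that order, and each change as a log2 ratio of vim1,2,3 over Col, with its mean ± SD over 4 arrays. Calls required a change of at least 2-fold together with an adjusted p under 0.05 in limma's moderated test, with Benjamini-Hochberg adjustment over the 20525 genes. By that rule 437 genes (2.13%) were lower and 660 (3.22%) higher. A spot well above background in the vim1,2,3 RNA was found for 68.6% to 81.5% of spots per array, and for 75.8% to 85.2% in Col, with the lower shares on arrays 1 and 2.

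The genotype label was checked first. VIM1 was below 0 on the 4 arrays, at -2.22, -2.46, -1.61 and -0.74 (-1.76 ± 0.77, adjusted p = 0.0254, limma), and so short of 2-fold on array 4. Its other probe was also below 0 on each (-2.19 ± 0.37, adjusted p = 0.00158 over probes, limma), at -1.69 and -2.30 on arrays 3 and 4. By contrast, VIM2 had log2 ratios of -1.42, -1.31, 1.82 and 1.11 and VIM3 of -1.06, -1.29, 1.61 and 0.25. VIM2 and VIM3 therefore went against the label on arrays 3 and 4, and the samples are called RNA labelled vim1,2,3 below. The sources used here do not place these probes with respect to the mutations. Means over arrays 1 and 2 alone are therefore given as well, and there VIM1 was at -2.34 (adjusted p = 0.13, limma). The labelled tissue was checked with organ markers. All 5 photosynthetic shoot markers were well above background in both RNAs on at least 3 arrays, as were 3 of 5 root markers in RNA labelled vim1,2,3 and 4 of 5 in Col. Of 4 flower markers, 1 was above background in RNA labelled vim1,2,3 and 4 were in Col, and of 4 seed markers 1 was in RNA labelled vim1,2,3 and 2 were in Col. The seed marker above background in both, SESA3, was saturated in both RNAs on the 4 arrays. A further SESA3 probe was also bright, saturated on 4 arrays in RNA labelled vim1,2,3 and on 3 in Col. The remaining SESA3 probe was above background on 1 array in RNA labelled vim1,2,3 and 0 in Col, so its probes disagree. PI, a floral organ identity gene, fell (-2.20 ± 0.69, adjusted p = 0.0113, limma). The summed flower marker signal was 1748 to 5925 in RNA labelled vim1,2,3 and 3737 to 8074 in Col, and its part in the results below was not tested. The summed root marker signal was 5724 to 58180.2 in RNA labelled vim1,2,3 and 9240.05 to 72706 in Col, with no root marker called. Its brightest gene, PYK10, was low on arrays 1 and 2 and high on arrays 3 and 4 in both genotypes. PYK10 signals were 4327, 2937, 47668.5 and 51942.5 in RNA labelled vim1,2,3, against 20038, 7181, 62383 and 67231 in Col. Its log2 ratios were -2.21, -1.29, -0.39 and -0.37, from a probe saturated in RNA labelled vim1,2,3 on 2 arrays. The other PYK10 probes were also below 0 on arrays 1 and 2. They ranged from -0.11 to 0.69 on array 3 and from -0.15 to 0.41 on array 4. The part of the root marker signal in the results below was likewise not tested. In seedling RNA, fewer cells of a type and less RNA per cell cannot be told apart.

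PAP1 was lower in RNA labelled vim1,2,3, and was the only 1 of the 9 tested regulators to be called, in this or the other direction. The remaining 8 were not called by limma, and at an unadjusted p under 0.05 none was added, PAP1 alone being lower and 0 higher. Over the whole array, 6847 of the 20525 tested genes had an unadjusted p under 0.05 in either direction (limma). The share of called members stands beside 2.13% of all tested genes called lower. Over the 9 genes the median of the mean log2 ratios was -0.30, against -0.05 over all genes tested, with 7 means below 0 and 2 above, where 54.1% of all tested genes had a mean below 0. The regulators differed widely in how much they varied between arrays, and array 2 held the ratio farthest from 0 for 6 of the 9, against 25.9% of all genes.

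**Figure D1:**
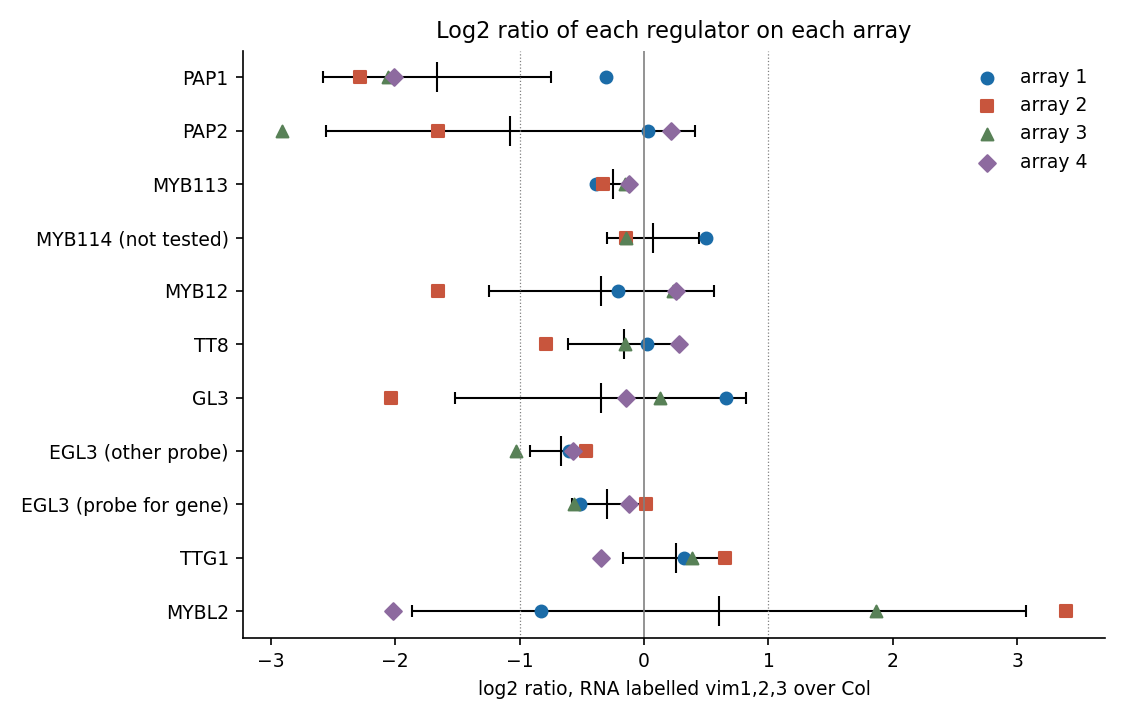
Log2 ratios on the x axis (RNA labelled vim1,2,3 over Col) for each probe of the 10 regulators (rows), with a marker per array, a vertical tick at the mean and a bar of ± SD over arrays; dotted lines mark 2-fold. PAP1 is below 0 on the 4 arrays, with array 1 at -0.30 apart from the others, and MYBL2 spans -2.02 to 3.39.

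PAP1, also called MYB75, is the main MYB activator of anthocyanin genes in sugar-fed and light-grown seedlings. Its signal was 10376, 4832, 719 and 673 in RNA labelled vim1,2,3, against 12818, 23556, 2998 and 2715 in Col. Both genotypes were high on arrays 1 and 2 and low on arrays 3 and 4, so the groups overlapped although each vim1,2,3 sample was below the Col sample of its own array. PAP1 fell 3.17-fold (-1.67 ± 0.91, SD, n = 4, adjusted p = 0.0362, limma). The ratios of arrays 2, 3 and 4 were alike, at -2.29, -2.06 and -2.01, and that of array 1 was -0.30. A ratio below 0 on 4 of 4 arrays was found for 22.5% of all tested genes.

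The mean of PAP1 kept its direction with fewer arrays, and its call did not always stand. Without array 1 the mean was -2.12 (adjusted p = 0.00662). Leaving out array 2, 3 or 4 gave means of -1.46, -1.53 and -1.55 and ended the call, at adjusted p of 0.0606, 0.156 and 0.13. Over all genes, calls of lower numbered 589, 32 and 58 without those arrays, against 437 with all 4. On arrays 1 and 2 alone the mean was -1.30 (adjusted p = 0.449, limma), where 0 genes were called lower, 53 were called higher and 2420 had an unadjusted p under 0.05. With the RNAs of an array not paired, the adjusted p was 0.392. The spread between replicates of a genotype was large for this gene: the highest sample was 15.4-fold above the lowest in RNA labelled vim1,2,3 and 8.67-fold in Col, where the medians over all tested genes were 1.67-fold and 1.76-fold. Of all tested genes, 2.06% varied at least as much among the Col samples.

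**Figure D2:**
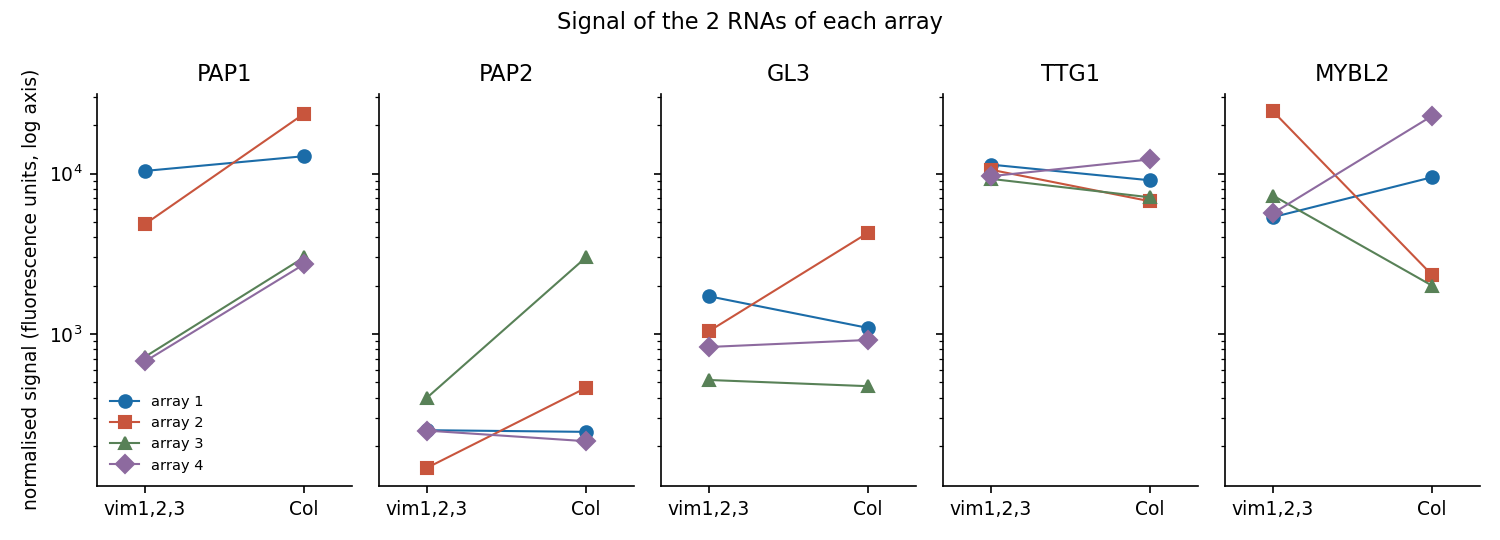
Normalised signal (log axis, fluorescence units) of 5 regulators in RNA labelled vim1,2,3 and in Col, with a line joining the RNAs of the same array. The lines of PAP1 all run upward to Col from levels that differ between arrays, those of MYBL2 cross, and those of TTG1 stay between 6715 and 12245.

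PAP2 (MYB90), the nearest relative of PAP1 in function, and MYB113 and MYB114 lie side by side in the genome, with MYB114 in the middle. PAP2 had signals of 251, 146, 400.2 and 249.7 in RNA labelled vim1,2,3, against 245, 461, 2999.9 and 214 in Col. The Col sample of array 3 was far above all others, and the groups overlapped. On array 2 the Col sample (461) was above each sample of RNA labelled vim1,2,3, and the vim1,2,3 sample (146) was below each Col sample. The log2 ratio was 0.03, -1.66, -2.91 and 0.22 (-1.08 ± 1.48, adjusted p = 0.209, limma), and the mean was -0.47 without array 3 and -0.81 on arrays 1 and 2 alone. Its spot was well above background on 2 of 4 arrays for RNA labelled vim1,2,3 and on 4 for Col, so the lowest signals are poorly measured.

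MYB113 was close to background in both genotypes. Its signal was 129, 283, 119.8 and 200.3 in RNA labelled vim1,2,3 and 168, 355, 134 and 217 in Col, well above background on 1 and 3 arrays. The groups overlapped, and the ratio was below 0 on 4 of 4 arrays by a small and even amount (-0.25 ± 0.13, adjusted p = 0.266). With the scanner software's own log ratio, which adds no offset to the background-corrected signal, the mean was -0.89 (adjusted p = 0.0621), with each array centred on its median it was -0.08, and on arrays 1 and 2 alone -0.36. MYB114, an activator gene known to carry an early stop codon in the Col accession, was too dim to be tested, with a signal well above background on 0 of 4 arrays in either RNA once the outlier spot of array 4 was left out. Its signal on arrays 1 to 3 was 146, 93.9 and 80.9 in RNA labelled vim1,2,3 and 103, 104 and 89.3 in Col. No fold is given.

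The genes beside these loci were examined for changes shared along the chromosome. Of the 5 protein-coding genes on each side of the cluster from MYB113 to PAP2, 7 were tested, 1 was called higher and 0 lower, beside 3.22% and 2.13% of all genes. It was CAM4 (AT1G66410), a calmodulin gene, which rose (1.63, adjusted p = 0.0103, limma). Around PAP1, 8 of 10 such neighbours were tested and 1 was called, beside the same shares. GolS2 (AT1G56600), a galactinol synthase gene induced by drought, fell (-1.55, adjusted p = 0.0235), and the other 7 were not called. Leaving out array 4 ended the CAM4 call (adjusted p = 0.0633), and that of GolS2 without array 3 (0.123) or array 4 (0.0995) and with the RNAs not paired (0.0737). On arrays 1 and 2 alone the means were 1.75 and -1.02, neither of them called.

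MYB12 activates the early flavonoid genes that lead to flavonols and acts without a bHLH partner. Its signal was 306, 162, 753 and 694 in RNA labelled vim1,2,3, against 354, 513, 639.6 and 580.1 in Col. The groups overlapped, with RNA labelled vim1,2,3 lower on arrays 1 and 2 and higher on arrays 3 and 4, and only array 2 showed a change of 2-fold (-1.66). The mean was -0.34 ± 0.90 (adjusted p = 0.515, limma). It turned to 0.10 without array 2 and to 0.01 in the deposited series matrix, where the value of array 2 is blank, and was -0.93 on arrays 1 and 2 alone.

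The bHLH genes were not called. TT8, the bHLH gene of seed coat and seedling pigment, had signals of 560.0, 388, 240.2 and 285 in RNA labelled vim1,2,3, against 551, 668, 267 and 234 in Col. The groups overlapped almost wholly (-0.16 ± 0.46, adjusted p = 0.624, limma). GL3, which acts in trichomes as well as pigment, had signals of 1717, 1040.0, 516 and 829 in RNA labelled vim1,2,3 and 1089.9, 4266, 472 and 917 in Col. The Col sample of array 2 was the highest, and only there did the genotypes differ by 2-fold, with log2 ratios of 0.66, -2.04, 0.13 and -0.15 (-0.35 ± 1.17, adjusted p = 0.602). Without array 2 the mean of TT8 turned to 0.05 and that of GL3 to 0.21, while on arrays 1 and 2 alone they were -0.38 and -0.69, not called.

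EGL3, which shares its functions with GL3, was dim, and neither of its probes was well above background in RNA labelled vim1,2,3 on any of the 4 arrays. The probe that stood for the gene had signals of 175, 286, 136 and 132 in RNA labelled vim1,2,3 and 249.6, 283, 201 and 144 in Col, overlapping. Its mean was 1.23-fold lower (-0.30 ± 0.29, adjusted p = 0.259, limma) and not called, and the dim RNA leaves this fold inexact. The other probe had signals of 142, 269.5, 106 and 111 in RNA labelled vim1,2,3, against 215, 373, 217 and 164 in Col. It was lower on each of the 4 arrays, and its ranges still overlapped. Its mean was 1.59-fold lower (-0.67 ± 0.25, adjusted p = 0.0425 over 34439 probes, limma), a fold likewise inexact and short of the 2-fold needed for a call. In that fit over probes 2.06% were called lower. With the scanner software's own log ratio this probe reached -2.09 (adjusted p = 0.0328) and would be called, and the one that stood for the gene reached -0.95 (adjusted p = 0.151). An offset of 16 in place of 50 gave -0.85 for this other probe and no background correction -0.76. On arrays 1 and 2 alone the probe that stood for the gene was at -0.25 and the other at -0.53, not called.

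TTG1, the WD40 scaffold of the complex, was evenly expressed in RNA labelled vim1,2,3 but not in Col. Its signal was 11359.7, 10556, 9260.3 and 9622 in RNA labelled vim1,2,3 and 9072, 6715, 7104 and 12245 in Col. The groups overlapped, with RNA labelled vim1,2,3 higher on arrays 1 to 3 and lower on array 4 (0.25 ± 0.43, adjusted p = 0.412, limma), with a mean of 0.49 on arrays 1 and 2 alone. The highest sample of RNA labelled vim1,2,3 was 1.23-fold above the lowest, and 90.5% of tested genes varied at least as much. In Col it was 1.82-fold above the lowest, and 44.9% of tested genes varied at least as much. Its WD40 homologues LWD1 and LWD2, known from the circadian clock, were also not called, at 0.01 and 0.07 (adjusted p = 0.982 and 0.833).

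MYBL2, a single-repeat MYB protein that binds the bHLH partners and represses anthocyanin genes, varied more between arrays than nearly all other genes. Its signal was 5345, 24412, 7287 and 5652 in RNA labelled vim1,2,3, against 9479, 2331, 2000.0 and 22858 in Col. RNA labelled vim1,2,3 was higher on arrays 2 and 3 and lower on arrays 1 and 4, and the groups overlapped. The log2 ratios were -0.83, 3.39, 1.87 and -2.02 (0.60 ± 2.47, adjusted p = 0.659, limma), and 0.102% of tested genes had an SD as large or larger. The mean was -0.33 without array 2, 1.48 without array 4 and 1.28 on arrays 1 and 2 alone. Both channels were well above background and unsaturated on the 4 arrays, and the series matrix gave nearly the same values, at -0.91, 3.47, 1.81 and -1.87.

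Array 2 stood out for several regulators, so genes that report light and time of day were read beside them; these genes were chosen after their values were seen. The dawn clock gene CCA1 was at log2 ratios of 0.20, -2.16, -0.77 and -0.41 on arrays 1 to 4, and LHY, its partner, at 0.14, -2.72, -0.68 and -0.48. The daytime clock gene PRR7 was at -0.54, 2.18, 0.08 and -0.87. Each was farthest from 0 on array 2, and none of the 3 was called (adjusted p = 0.194, 0.201 and 0.792, limma). The light-signalling activator HY5, which promotes PAP1 transcription, was at 1.40, -2.47, 0.39 and 1.27 on arrays 1 to 4. PIF4, a growth-promoting factor of the same light pathway, was at -1.02, 3.38, 0.22 and -0.98, and neither was called (adjusted p = 0.892 for HY5 and 0.731 for PIF4). Both belong to the list of 15 tested light, sugar and hormone inputs described below, whose median on array 2 was 0.33. Among the regulators, PAP1, MYB12, TT8, GL3, TTG1 and MYBL2 were farthest from 0 on array 2. PAP1 was about as low on arrays 3 and 4 (-2.06 and -2.01) as on array 2 (-2.29), and PAP2 was lowest on array 3 (-2.91). The part of these clock and light genes, or of time of day, in the regulators' values was not tested.

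The enzymes that these regulators control were described from lists of related genes. Of 8 early flavonoid genes, which lead to flavonols and to the anthocyanin precursors, 3 fell, 0 rose and 5 were not called. The median of their mean log2 ratios was -1.18 and all 8 means were below 0, beside a median of -0.05 over all genes and 2.13% called lower. F3H (AT3G51240), flavanone 3-hydroxylase, had signals of 10022, 5894, 5984 and 6462 in RNA labelled vim1,2,3 and 17776, 51277, 27433 and 19408 in Col, and the groups did not overlap. It fell 3.82-fold (-1.93 ± 0.97, adjusted p = 0.0305, limma), while signals not overlapping with vim1,2,3 lower were found for 7.62% of all genes. The other F3H probe averaged -1.46 (adjusted p = 0.0526 over probes). CHI (AT3G55120), chalcone isomerase, and UGT78D1 (AT1G30530), a flavonol glycosyltransferase, fell at -1.30 and -1.06 (adjusted p = 0.0319 and 0.0395). The list's median on arrays 1 to 4 was -0.37, -2.47, -1.29 and -0.64.

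Of 13 late genes of anthocyanin and proanthocyanidin synthesis, 10 were tested, 1 fell, 0 rose and 9 were not called, with a median of -0.57, beside the same -0.05 and 2.13% over all genes. DFR (AT5G42800), dihydroflavonol reductase and a known target of the MYB-bHLH-TTG1 complex, had signals of 1704, 1357, 194 and 209 in RNA labelled vim1,2,3, against 6183, 6995, 392 and 905 in Col. As for PAP1, both genotypes were high on arrays 1 and 2 and low on arrays 3 and 4, and the groups overlapped. DFR fell 3.58-fold (-1.84 ± 0.59, adjusted p = 0.0141, limma), at -1.86, -2.37, -1.01 and -2.12. On array 1, where PAP1 was at -0.30, DFR lay within the range of its other arrays. SAT, an acyltransferase of anthocyanin decoration, was at -0.95 (adjusted p = 0.0374), short of 2-fold. The probes of 3AT1, another acyltransferase gene, disagreed, at 0.88 and -0.75. LDOX, the enzyme after DFR, was too dim to be tested, with a signal well above background on 0 arrays in RNA labelled vim1,2,3 and on 2 in Col.

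**Figure D3:**
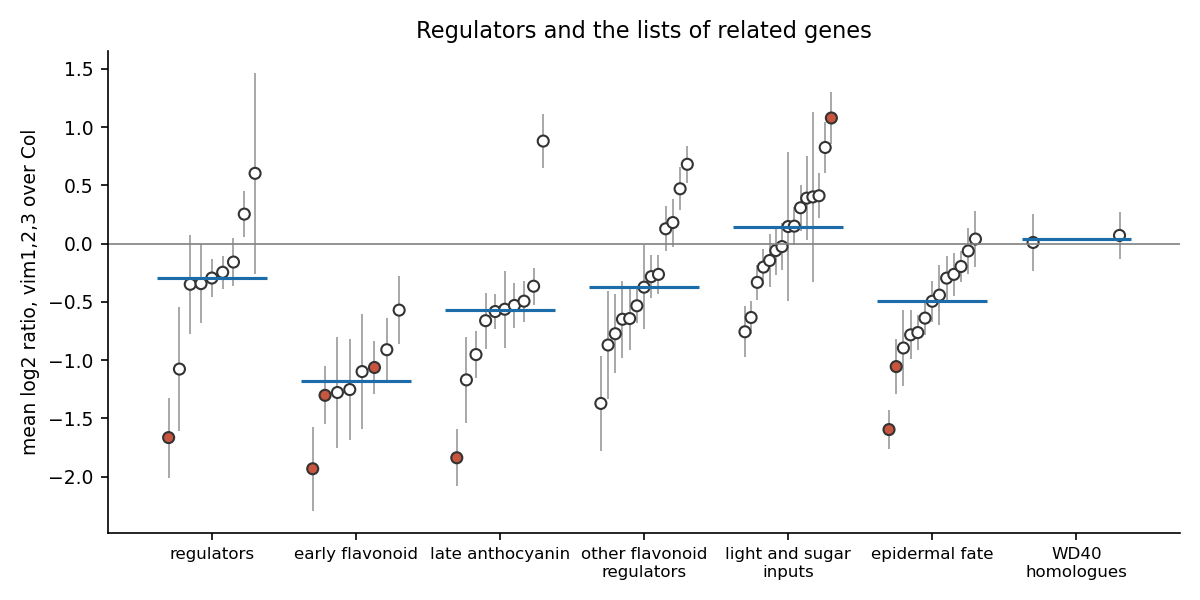
Mean log2 ratio (RNA labelled vim1,2,3 over Col) of each tested gene of the regulators and of 6 lists of related genes, with bars of ± SE from the limma fit; filled points were called and the blue line is the list's median. The early flavonoid genes lie lowest, with a median of -1.18, and the light and sugar inputs lie around 0, with a median of 0.15.

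The remaining lists held few calls. Of 13 tested other flavonoid regulators, 0 were called by limma, and at an unadjusted p under 0.05, 2 were below 0 and 2 above (median -0.37). Such a p was found in either direction for 6847 of all 20525 tested genes. LBD38, a repressor of anthocyanin genes under nitrate, was at 0.68 (adjusted p = 0.0448, limma), short of 2-fold. The mean of TTG2, a WRKY gene downstream of TTG1, was 1.45-fold lower (-0.53, adjusted p = 0.0636) and not called. TTG2 was well above background on 0 arrays in RNA labelled vim1,2,3, so its fold is inexact. Of 15 tested light, sugar and hormone inputs, 1 rose, 0 fell and 14 were not called (median 0.15), beside 3.22% of all genes called higher. SUC1 (AT1G71880), a sucrose transporter required for sucrose to induce PAP1, had signals of 6751, 4860.0, 9857 and 7577 in RNA labelled vim1,2,3 and 2794, 3865, 3533 and 3235 in Col. The groups did not overlap, as for 6.87% of all genes with vim1,2,3 higher, and SUC1 rose 2.11-fold (1.08 ± 0.51, adjusted p = 0.0357), short of 2-fold with median centring (0.90). Of the 17 listed loci of this group, TAS4 and MIR828, whose small RNAs target PAP1, PAP2 and MYB113, had no matched probe and are not analysed here.

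GL3, EGL3 and TTG1 also pattern the epidermis, so 13 trichome and root hair genes were read beside them. Of these, 2 fell, 0 rose and 11 were not called, beside 2.13% and 3.22% of all genes called lower and higher. Their median was -0.50 and 12 of 13 means were below 0, beside -0.05 and 54.1% over all genes. TCL1 (AT2G30432), a single-repeat MYB that inhibits trichome formation, had signals of 4376, 7039.7, 2393 and 1878 in RNA labelled vim1,2,3, against 10960.4, 19429.5, 9386 and 5791 in Col. The groups overlapped, since both genotypes were highest on array 2 and lowest on array 4. It fell 3.02-fold (-1.60 ± 0.28, adjusted p = 0.00577, limma), with an even ratio on the 4 arrays, and was called without each array in turn, but not on arrays 1 and 2 alone (-1.39, adjusted p = 0.308). ETC3 (AT4G01060), a relative of TCL1 with the same role, fell 2.08-fold (-1.06 ± 0.56, adjusted p = 0.042), its groups not overlapping, with array 4 at -0.22 and its other probe averaging -0.51. This call was lost in 9 of 17 alternatives, among them the scanner software's log ratio (adjusted p = 0.0843), the series matrix (0.0632), no filter on dim probes (0.0502) and the mean of both probes (-0.78, 0.0853). MYC1, a bHLH relative of GL3, and SCM, a receptor kinase of root epidermis, were at -0.76 and -0.64 (adjusted p = 0.0338 and 0.0452), short of 2-fold.

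Several of these calls were lost with fewer arrays while the means moved little. Without array 3 and without array 4, F3H was at -1.84 and -2.05, CHI at -1.29 and -1.52 and UGT78D1 at -0.90 and -1.18, none of them called (adjusted p of 0.0753 to 0.162). CHI (0.0817) and UGT78D1 (0.0629) were also not called without array 1, nor UGT78D1 without array 2 (0.066). DFR lost its call without array 4 (-1.75, 0.0779), SUC1 without array 1 (1.01, 0.104), 3 (0.94, 0.155) or 4 (1.03, 0.126), and ETC3 without array 1 (-0.99, 0.117), 2 (-0.94, 0.0728) or 3 (-0.95, 0.17). On arrays 1 and 2 alone, F3H was at -1.97, CHI at -1.61, UGT78D1 at -0.99, DFR at -2.11, SUC1 at 0.80 and ETC3 at -1.32, with none called. With the RNAs of an array not paired, F3H and SUC1 kept their calls and DFR (adjusted p = 0.373), CHI (0.167), UGT78D1 (0.424), TCL1 (0.104) and ETC3 (0.088) did not.

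The genes whose 4 log2 ratios were most like those of PAP1 were found by the root mean square difference from PAP1 over the 4 arrays, among 20428 genes with a value on each. They were RXW8 (AT1G58520), with a difference of 0.087 and ratios of -0.28, -2.17, -2.03 and -1.88, AT4G34550, with a difference of 0.134, and AT1G19500, with a difference of 0.295. Their means were -1.59, -1.55 and -1.79, which follow from the choice. With the RNAs of an array not paired, the adjusted p was 0.220 for RXW8, 0.301 for AT4G34550 and 0.0841 for AT1G19500. On arrays 1 and 2 alone they were at -1.23, -1.16 and -1.35, not called. The likeness describes these 4 arrays only.

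**Figure D4:**
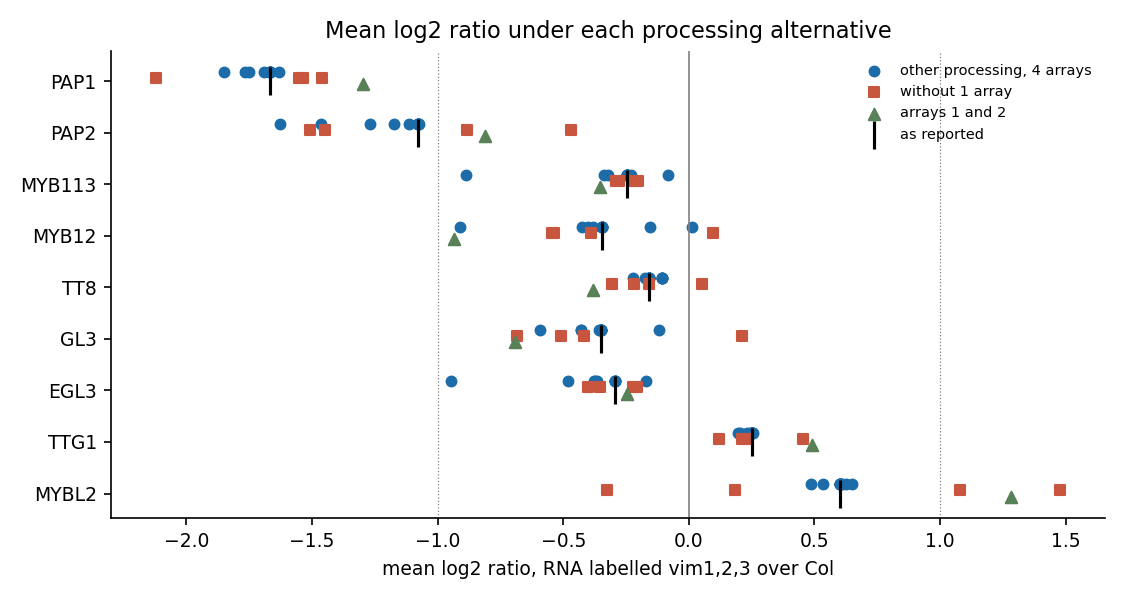
Mean log2 ratio of each tested regulator (rows) under every alternative in processing, with blue circles for other processing of the 4 arrays, red squares without 1 array, green triangles for arrays 1 and 2 alone and black ticks for the values reported. PAP1 lies between -2.12 and -1.30 in all of them, while MYB12, TT8, GL3 and MYBL2 each lie on both sides of 0.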

How the data were processed

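Per the file headers, the authors scanned the 4 arrays with Agilent software (Feature Extraction 10.7.3.1). As deposited, each spot has a linear intensity per channel and a log10 ratio of the processed channels, red over green. The authors' series matrix gives 1 log2 ratio per probe and array, as deposited; the sources used here do not say how it was normalised or centred. Its columns had medians of -0.09, 0.01, -0.04 and -0.03 and correlated with the scanner ratio of the same array at 0.998 to 0.999.

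Median intensities were background-corrected by normexp (offset 50) and normalised by loess within each array in limma 3.58.1 (R 4.3.3); signals per channel are after Aquantile. Control spots and outlier spots were left out and spots of a probe averaged. Probes were matched to loci by accession through RefSeq (assembly TAIR10.1), 34185 of 43603 matching; the array's header names an older build, so no coordinates are given. Probes were tested where 3 or more arrays had a spot well above background in either channel, and the brightest stood for its gene. The intercept of the 4 ratios was tested with lmFit and eBayes, which pairs the RNAs of an array. Where only 1 RNA was never above background, a fold was also taken against a floor. The floor was the dim RNA's own signal or the lowest signal detected above background, whichever was higher. For EGL3 and TTG2 this gave the same fold as the mean ratio. The script was tested on simulated data.

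The members and lists were chosen with earlier results of these data known. Named were the members, up to 4 called genes per list with the smallest p (or the 2 smallest where none was called), called neighbours, 3 genes most like PAP1 and VIM1 to VIM3; others were named after their values were seen. Alternatives changed the background correction, normalization, filter, probe choice, weights, pairing and arrays. The series states independent biological samples, and the number of arrays limits the precision.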

Additional observations from a re-analysis of the deposited data

Results flagged for a closer look

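Each group of 4 values was checked for a sample far from the others, and chance flags about 1 in 20 such groups. Of 49 groups checked 4 were flagged, 1 of them among the 30 groups of the regulators. The log2 ratios of PAP1 were flagged for array 1, which stood apart by 0.862 of the whole range. Those of RXW8 and AT4G34550, chosen for their likeness to PAP1, were flagged for the same array at 0.848 and 0.924. The log2 ratios of ETC3 were flagged for array 4, at 0.873.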

How the results depend on the processing

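PAP1 stayed below 0 in each of 17 alternatives and was called in 12. Having a single probe, PAP1 necessarily kept its mean of -1.67 with other filters, the mean of all probes and other eBayes options. Its call was lost without the pairing of RNAs on an array (no replicate block, -1.67, adjusted p = 0.392), on arrays 1 and 2 alone (-1.30, chosen after seeing the data) and without array 2, 3 or 4 (range without each array -2.12 to -1.46). The count of regulators called lower was 0 in those cases and 0 to 1 without each array. Genes called lower numbered 784 with the scanner's log ratio, 673 in the series matrix, 876 with median centring, 151 with no replicate block, 0 on arrays 1 and 2 and 32 to 589 without each array; genes called higher numbered 393 with no replicate block, 53 on arrays 1 and 2 and 180 to 971 without each array. Rises were 60.2% of calls, but 42.1% with the scanner's log ratio (median of all genes -0.14), 47.5% in the series matrix (-0.11) and 42.0% with median centring (-0.16), beside a median of -0.05 as reported. Early flavonoid genes called lower numbered 1 with no replicate block, 0 on arrays 1 and 2 and 0 to 2 without each array. Late genes called lower numbered 3 with the scanner's log ratio, 2 in the series matrix and with median centring, 0 with no replicate block and on arrays 1 and 2, and 0 to 2 without each array. Epidermal genes called lower numbered 1 without the filter and with the mean of all probes, 0 with no replicate block and on arrays 1 and 2, and 1 to 2 without each array. Of the other flavonoid regulators 1 was called lower with the scanner's log ratio (TTG2, -1.37), and light and sugar inputs called higher numbered 0 with median centring and on arrays 1 and 2 and 0 to 1 without each array. Without each array the means ranged over 0 for MYB12 (-0.54 to 0.10), TT8 (-0.31 to 0.051), GL3 (-0.68 to 0.21), MYBL2 (-0.33 to 1.48), LWD1 (-0.20 to 0.26), LWD2 (-0.084 to 0.24), VIM2 (-0.54 to 0.54) and VIM3 (-0.70 to 0.27). Direction also turned for MYB12 in the series matrix (0.011), for LWD1 and LWD2 with the scanner's log ratio (-0.040 and -0.00075), for LWD1 in the series matrix (-0.10) and with array weights (-0.0051), for LWD2 with median centring (-0.18) and on arrays 1 and 2 (-0.064), for VIM2 with the scanner's log ratio (-0.14), with median centring (-0.043) and on arrays 1 and 2 (-1.36), and for VIM3 with array weights (0.19). The cause was not tested. PAP2, MYB113, MYB114 and EGL3 are limited by signals near background.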
